A study of Mus musculus with 12 samples.

Results

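Transcripts of 40 transcription factors that pattern the head or the limb were compared in mice between the side populations of 2 muscles, the extraocular muscle (EOM) that moves the eye and the tibialis anterior (TA) of the lower hind limb. The factors are homeobox, basic helix-loop-helix (bHLH), AP-2 and related proteins, without the Hox, Irx, Fox and Tbx families. They were found by gene symbol, and all 40 were on the array, with 78 probe sets that name only them, of 18194 named genes and 45101 probe sets in all. Side population cells are the rare cells of a dissociated tissue that pump out the dye Hoechst. Each group was 6 separately isolated preparations, 1 per array, here called EOM 0, 1, 2, 3, 5 and 6 and TA 0, 1, 2, 3, 5 and 6 after the numbers in their titles. The labels name no treatment, genotype, strain, sex or age for either group, and do not say how many animals gave 1 preparation.

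Patterning factors are read as a code of position in the embryo. Eye muscles form from head mesoderm inside connective tissue that comes largely from cranial neural crest, whereas limb muscles form from somites inside connective tissue of the limb bud, and adult cells of each place can keep part of the code of their origin. Twist, Alx and AP-2 factors act in neural crest and face, Six2 and its relatives bind DNA and recruit Eya proteins as co-activators, Dlx, Hand and Msx factors divide the pharyngeal arches, and Shox2, Pitx1, Lmx1b and En1 shape parts of the limb. Meis and Pbx proteins, the TALE homeobox class, bind DNA beside Hox and other factors. Which of these transcripts differ between side populations of a head and a limb muscle is the question the comparison answers.

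The signals are array intensities in arbitrary units on a linear scale, with no count or depth behind them, so the 6 arrays a group limit the precision. EOM 1, TA 3 and TA 5 stood apart: their median signals were 87.2, 69.6 and 63.2 against 31.2 to 43.4 on the others, and their 3' to 5' beta-actin ratios, a measure of shortened RNA, were 104, 165 and 100.2 against 5.27 to 68.6. Probe sets of control transcripts added at hybridization averaged 23685, 17204.5 and 10859 on those 3 arrays, against 2781 to 6573 on the others. EOM 1 had a mean correlation of 0.632 with the other EOM arrays, where the other 11 arrays had 0.786 to 0.888 with their own group. Results are therefore also given without EOM 1, and without all 3 arrays. Of the fixed marker lists, 8 of 10 endothelial markers passed the test and all 8 were lower in EOM, with a summed signal of 1213 to 2542 in EOM and 10976 to 36059 in TA. Of 10 pericyte and smooth muscle markers, 8 were lower (6183 to 10730 against 20526 to 34523). Of 8 tendon markers, 7 were lower (2776 to 13831 against 34741 to 117148). Of 9 fibroblast markers tested, 4 were higher and 0 lower (96672 to 130674 against 53272 to 84239). Abcg2, the dye pump that defines the side population, fell by 2.23 on the log2 scale in EOM (adjusted p = 0.00206), from a TA mean of 2668 ± 728 to 649.7 ± 322 (SD, n = 6). Of 10 myogenic markers 6 were tested, with 1 lower, the integrin Itga7 (-2.25 ± 0.37, adjusted p = 5.36e-04), and 0 higher (139 to 592 against 553 to 1117). Pax7 and Myf5, defining markers of muscle precursor cells, were too dim to be tested, as were Myog and Myf6 of the same list. In such mixed samples fewer cells of a type and less RNA per cell cannot be told apart, and the part of cell makeup in the results below was not tested.

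Of the 40 factors, 27 had a probe set bright enough to be tested, and 13 did not. The level was a mean log2 value over the 12 arrays that corresponds to a signal of about 26.9. Twist1 and Six2 were higher in EOM and Shox2 and Pbx3 were lower, past an adjusted p of 0.05 (limma on log2(signal + 16), adjusted over all probe sets tested). That is 14.8% of the 27, where 10.9% of all 13067 genes tested passed. By direction, 7.41% of the factors rose (4.05% of all genes) and 7.41% fell (6.81% of all genes). At an unadjusted p under 0.05 (limma) were 11 of the 27 factors and 3083 of the 13067 genes, the background for such counts below. The median log2 fold change, EOM minus TA, was 0.20 over the 27 factors and -0.04 over all genes. On the brightest probe set of each gene, Twist1, Alx1 and Shox2 were the 3 factors whose 6 EOM and 6 TA signals did not overlap, 11.1% against 7.13% of all genes. The TA signals of Alx1 were all below the level needed for testing.

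The count rested on EOM 1. Without that array 12 factors passed, 8 higher and 4 lower, or 44.4% of 27, beside 20.6% of all genes (29.6% higher beside 10%, and 14.8% lower beside 10.5%), and 7 did not overlap (25.9% beside 15.2%). The added 8 were Alx1, Eya2, Mitf, Emx2, Sox9 and Prrx1, higher, and Dlx5 and Msx1, lower. Without EOM 1, TA 3 and TA 5 together, a choice made once the signals were known, 11 of 29 tested passed (37.9% beside 22.0%) and 12 did not overlap (41.4% beside 21.0%). Without TA 3 alone 6 of 29 passed (20.7% beside 11.1%), with Alx1, Mitf and Sox9 gained and Pbx3 lost.

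**Figure D1:**
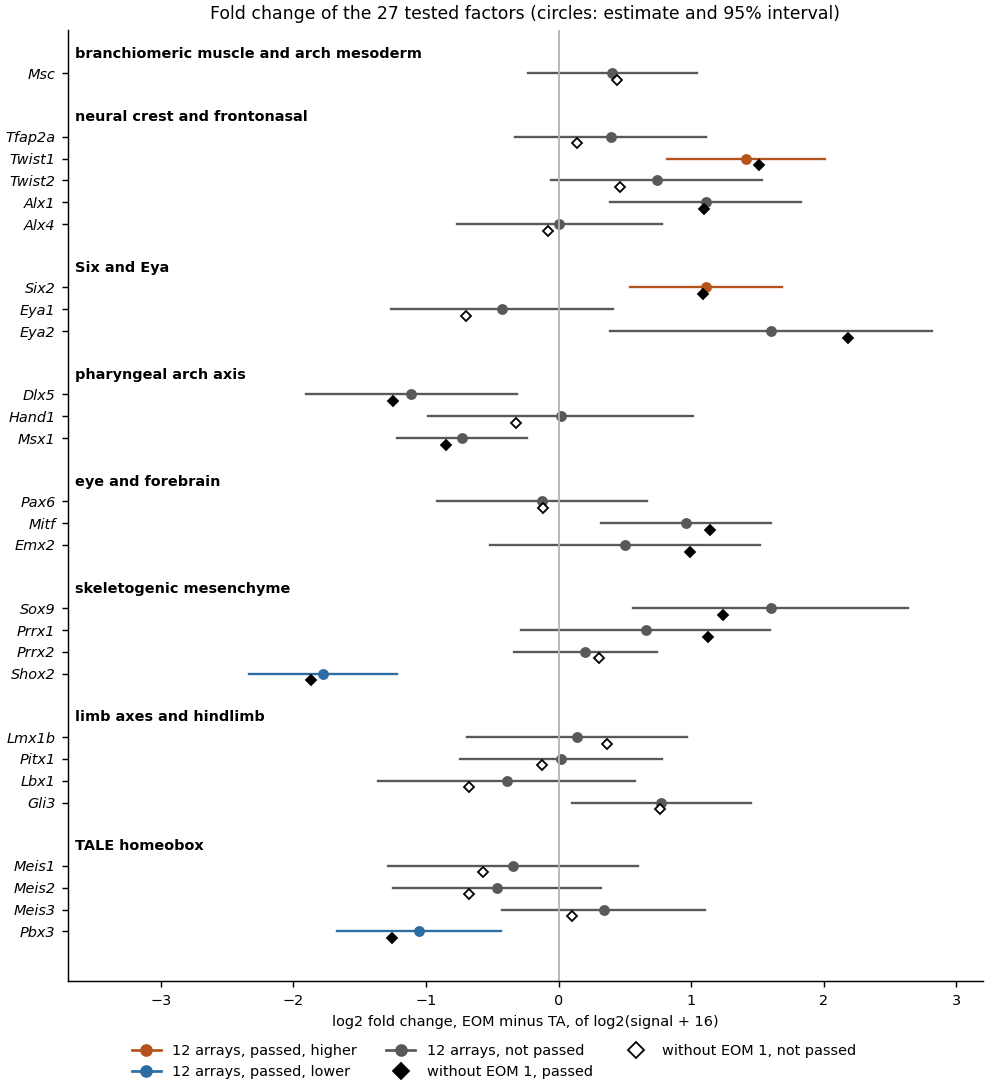
Log2 fold change (EOM minus TA, x axis, on the scale of log2(signal + 16)) of the 27 tested factors grouped by role, with circles and lines for the estimate and its 95% interval from 12 arrays and diamonds for the estimate without EOM 1. Shox2 lies farthest to the left, at -1.77, and Eya2 moves most to the right when EOM 1 is left out, from 1.61 to 2.18.

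The bases before the start sites of Twist1, Six2 and Shox2, the factors past the threshold that are in the promoter table used, are shown because they are the control regions next to the transcripts that differed. Each is the 250 bases upstream of the RefSeq start site in mouse build GRCm38.p6, read 5' to 3' on the gene's strand: chr12:33957421-33957670 (plus strand) for Twist1, chr17:85688255-85688504 (minus strand) for Six2 and chr3:66981772-66982021 (minus strand) for Shox2. Capitals mark the 4-base homeodomain core TAAT and the Meis-type site TGACAG, on either strand.
Twist1: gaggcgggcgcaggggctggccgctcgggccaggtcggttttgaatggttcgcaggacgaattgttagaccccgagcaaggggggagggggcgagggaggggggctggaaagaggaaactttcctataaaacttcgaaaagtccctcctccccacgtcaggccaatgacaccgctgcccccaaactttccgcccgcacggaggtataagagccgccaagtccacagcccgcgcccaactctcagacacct
Six2: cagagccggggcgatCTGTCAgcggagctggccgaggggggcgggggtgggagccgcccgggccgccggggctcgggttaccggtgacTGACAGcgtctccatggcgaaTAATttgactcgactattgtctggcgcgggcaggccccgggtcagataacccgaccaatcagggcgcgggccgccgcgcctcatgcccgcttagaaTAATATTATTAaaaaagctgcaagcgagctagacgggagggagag
Shox2: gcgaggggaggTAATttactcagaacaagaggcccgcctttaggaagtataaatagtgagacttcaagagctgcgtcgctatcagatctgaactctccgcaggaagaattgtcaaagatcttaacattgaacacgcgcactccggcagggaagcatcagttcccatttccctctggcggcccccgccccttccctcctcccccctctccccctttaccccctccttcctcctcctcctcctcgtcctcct

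The Six2 window held 4 matches to TAAT, 3 of them side by side or overlapping near the start, and 2 matches to TGACAG. The Shox2 window held 1 TAAT and the Twist1 window 0. None of the 3 windows held the bHLH E-box CANNTG, to which Twist proteins can bind, or the AP-2 site GCCNNNGGC. Over all 32851 windows of this length in the table, 54.9% held TAAT, 15.9% TGACAG, 66.2% CANNTG and 13.7% GCCNNNGGC, both strands searched. The 27 factors with an entry had 34 windows, of which 22 held TAAT, 5 TGACAG, 16 CANNTG and 4 GCCNNNGGC. Counted by factor, 16 of 27 had a window with TAAT, 5 with TGACAG, 14 with CANNTG and 4 with GCCNNNGGC. Such matches describe the letters and are not measured binding.

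Among the neural crest and frontonasal factors, Twist1 rose in EOM, and 1 of 5 tested passed. Twist1, a bHLH factor of cranial mesenchyme and limb bud, had EOM signals of 418 at the lowest, 657 at the median and 1062 at the highest, and TA signals of 160, 202.5 and 402. All EOM preparations were above all TA preparations in the deposited signals, though EOM 1, EOM 5 and TA 3 lay close to one another. Under quantile normalization and under median centring the 2 groups overlapped. The log2 fold change was 1.41 ± 0.28 (SE, n = 6, adjusted p = 0.00320), and it passed under all 25 alternatives. Twist2, its close relative known from dermis, ran from 226 through 278 to 842 in EOM and from 76.1 through 177 to 487 in TA. The highest EOM value was EOM 1 and the highest TA value TA 3, and the groups overlapped. Its difference was 0.74 (95% interval -0.05 to 1.54, adjusted p = 0.299). Alx1, a homeobox factor of the frontonasal and periocular region, was dim but did not overlap, at 30.4 to 80.8 in EOM and 1.2 to 25.7 in TA. With 12 arrays it was at 1.11 ± 0.34 (adjusted p = 0.0536, 95% interval 0.39 to 1.83), and without EOM 1 at 1.10 (adjusted p = 0.0360). Its relative Alx4 was at 43.6 in EOM and 39.8 in TA at the median, a difference of 0.00 (95% interval -0.77 to 0.78). Tfap2a, the AP-2 protein of early neural crest, was at 0.39 (95% interval -0.33 to 1.11).

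Among Six2 and the Eya factors Six2 rose, and 1 of 3 passed. Six2, a homeobox factor of head mesenchyme and kidney progenitors, ran from 162 through 267 to 340 in EOM and from 79.2 through 95.8 to 199 in TA. The TA arrays lay at 79.2 to 124 except TA 3, the only one to reach into the EOM range. The log2 fold change was 1.11 ± 0.27 (SE, n = 6, adjusted p = 0.0140), past the threshold under all 25 alternatives. Eya2, a co-activator of Six2 and its relatives, was at 188 to 366 in 5 EOM preparations and at 7.4 in EOM 1, and at 4.20 to 111 in TA. The 5 EOM preparations lay above every TA preparation, and EOM 1 lay among the lowest. With all arrays Eya2 was at 1.61 ± 0.58 (adjusted p = 0.106), and without EOM 1 at 2.18 ± 0.38 (adjusted p = 4.37e-04). Eya1 pointed the other way in value, at -0.43 (95% interval -1.27 to 0.41), and its other probe sets were at -0.61 and -0.12, none past the threshold.

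**Figure D2:**
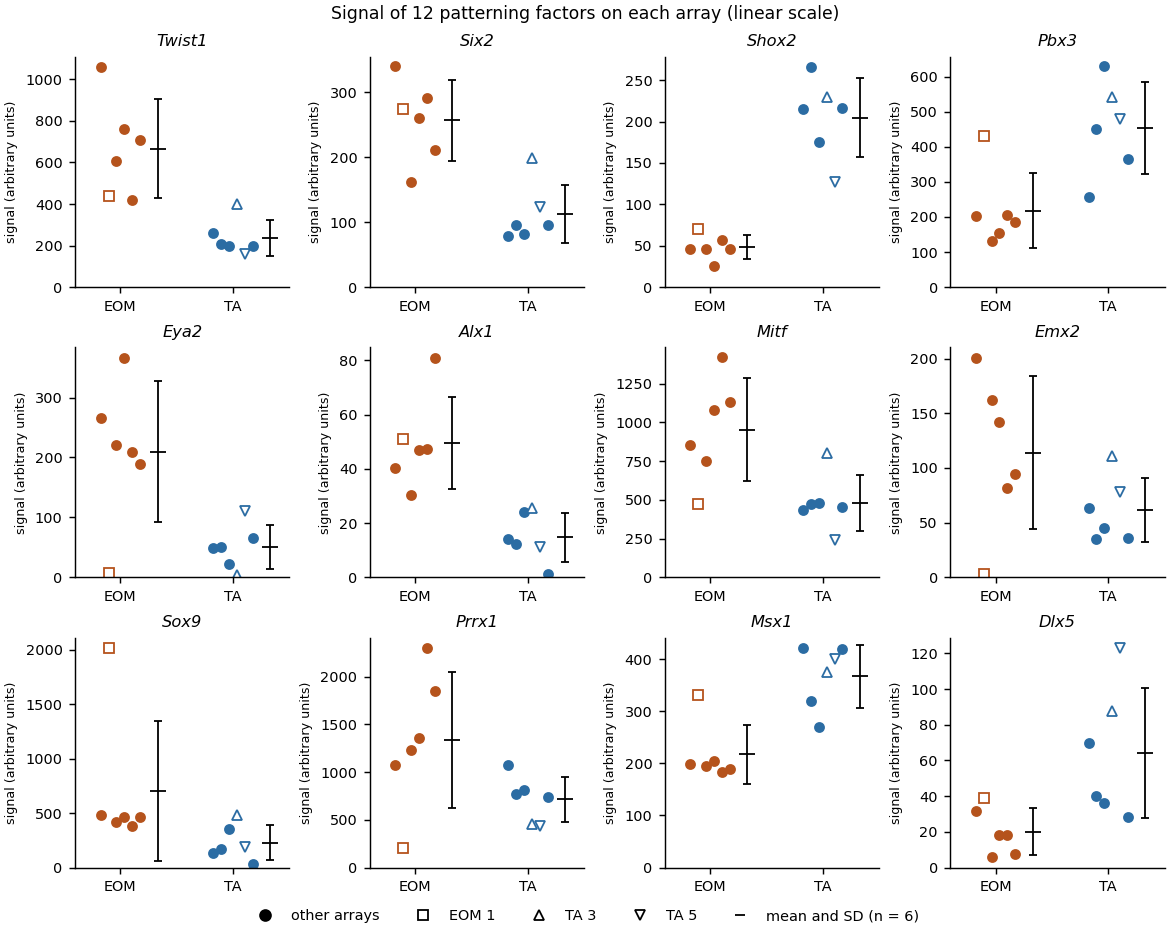
Signal (arbitrary units, linear y axes from 0) of the 12 factors that passed with all arrays or without EOM 1, 1 point per array, with the mean and SD of 6 arrays beside each group and EOM 1, TA 3 and TA 5 drawn as open symbols. EOM 1 sits apart from the other EOM arrays for Eya2 (7.4), Emx2 (3.00), Prrx1 (202.5), Sox9 (2014), Pbx3 (430.1) and Msx1 (332).

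Of the factors of skeleton-forming mesenchyme, Shox2 fell in EOM, the largest change among the 27 tested with all arrays. Shox2 is a homeobox factor of the proximal limb skeleton. Its signal ran from 26.0 through 46.3 to 70.1 in EOM and from 127 through 216 to 266 in TA. No EOM preparation came near the TA range, EOM 1, TA 3 and TA 5 included. The log2 fold change was -1.77 ± 0.27 (SE, n = 6, adjusted p = 2.31e-04) and it was -1.97 without EOM 1, TA 3 and TA 5. A second, dimmer Shox2 probe set was at -0.07 (median 20.0 in EOM and 24.95 in TA), and averaging both ended the call (-0.92, adjusted p = 0.0603).

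Sox9, the cartilage and tendon progenitor factor, and Prrx1, a marker of limb and face mesenchyme, were higher in EOM once EOM 1 was left out. For Sox9, 5 EOM preparations were at 383 to 481 and EOM 1 at 2014, against 33.0 to 482 in TA. Only TA 3 reached the EOM range. The difference was 1.60 ± 0.49 (adjusted p = 0.0532) with all arrays and 1.24 ± 0.41 (adjusted p = 0.0472) without EOM 1. The other 2 tested Sox9 probe sets were at 0.87 and 0.98 and did not pass. The summed signal of 8 glia markers was 16285 on EOM 1 and 725 to 3710 on the other EOM arrays, beside 1481 to 3418 in TA, and Sox9 is also made in glia. Over the EOM arrays most of the sum was 1 marker, Mbp (3782 ± 5728 in EOM, SD, n = 6), while the other 6 tested had EOM means of 48.4 to 127. Sox10, a defining glia marker, was at 103 ± 127 in EOM and 99.3 ± 32.2 in TA, and the part of such cells in the Sox9 result was not tested. For Prrx1, 5 EOM preparations were at 1079 to 2304 and EOM 1 at 202.5, against 440 to 1079 in TA. With all arrays it was at 0.66 ± 0.45 (adjusted p = 0.476) and 1.12 ± 0.26 (adjusted p = 0.00548) without EOM 1, and the 3 other tested probe sets, at 0.11 to 0.78 with all arrays, did not pass. Prrx2, its relative, was at 0.20 (95% interval -0.33 to 0.74). Cartilage and bone markers gave 0 of 4 tested past the threshold, 0 also at an unadjusted p of 0.05, with a summed signal of 129 to 743 in EOM and 199 to 660 in TA.

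Pbx3 fell in EOM, 1 of 4 TALE factors. It ran from 132 through 194 to 430.1 in EOM and from 258 through 465 to 630.4 in TA. EOM 1 was the only EOM array inside the TA range. The log2 fold change was -1.05 ± 0.29 (SE, n = 6, adjusted p = 0.0330), and -1.26 (adjusted p = 0.00120) without EOM 1. The call was lost when any of EOM 0, 2, 3, 5 and 6 or TA 1, 2, 3 and 5 was left out (adjusted p up to 0.0936), with quantile normalization (0.108), with the replicate block as a fixed term (0.0814) and when its dimmer probe set, at -0.17 alone, was averaged in (0.0729). Meis1 was at -0.34 (95% interval -1.29 to 0.60), with a second probe set of opposite sign (0.39). Meis2 was at -0.46 (95% interval -1.25 to 0.32) and Meis3 at 0.34 (95% interval -0.43 to 1.11).

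The factors that divide the pharyngeal arches were mostly dim: 6 of 9 could not be tested, and 0 of the 3 tested passed. At an unadjusted p of 0.05 (limma) 2 did, beside 3083 of all 13067 genes. Msx1, a homeobox factor of arch and limb mesenchyme, was at 184 to 205 in 5 EOM preparations and 332 in EOM 1, and at 271 to 421 in TA. It was at -0.73 ± 0.23 (adjusted p = 0.0639) with all arrays and -0.85 ± 0.20 (adjusted p = 0.00631) without EOM 1, when the groups did not overlap. A second, dimmer Msx1 probe set was at -0.29 (95% interval -1.21 to 0.63) with all arrays. Its signals overlapped, at 12.4 to 110.9 in EOM and 11.7 to 89.2 in TA. Dlx5, a factor of the lower jaw and of bone-forming cells, ran from 5.90 to 39.1 in EOM and from 28.1 to 123 in TA. The EOM median of 18.15 lay below the level needed for testing, and the TA median of 55.0 above it. Dlx5 was at -1.11 ± 0.38 (adjusted p = 0.0843) with all arrays and -1.25 (adjusted p = 0.0241) without EOM 1. Without EOM 1, TA 3 and TA 5 it did not pass (-0.90, adjusted p = 0.0765). Hand1 was at 0.02 (95% interval -0.98 to 1.02).

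Of the eye and forebrain factors none passed with 12 arrays (3 tested, 1 at an unadjusted p of 0.05). Mitf, the master regulator of pigment cells that is also made by macrophages and mast cells, was at 751 to 1425 in 5 EOM preparations and 472 in EOM 1, and at 240 to 802 in TA with TA 3 highest. Its difference was 0.96 ± 0.30 (adjusted p = 0.0606), which became 1.15 ± 0.26 (adjusted p = 0.00470) when EOM 1 was left out. Of 6 tested markers of pigment cells and pigment epithelium 1 passed, Best1 (1.87 ± 0.38, adjusted p = 0.00364), with a summed signal for 10 markers of 411 to 1194 in EOM and 222 to 732 in TA. Leukocyte and macrophage markers were lower in EOM for 7 of 10 tested (summed signal 399 to 2165 against 1945 to 9108). Emx2, a homeobox factor of forebrain and shoulder girdle, was at 81.6 to 200.4 in 5 EOM preparations and 3.00 in EOM 1, and at 35.3 to 111 in TA. It was at 0.50 ± 0.48 (adjusted p = 0.667) with all arrays and 0.99 ± 0.31 (adjusted p = 0.0330) without EOM 1. Pax6, which directs eye formation, was at 27.1 in EOM and 21.4 in TA at the median, near the level needed for testing. Of 3 tested markers of retina and lens 0 passed, and 0 did at an unadjusted p of 0.05; 7 of the 8 on the array stayed under a signal of 100 on every array.

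The factors of the limb axes gave 0 of 4 tested past the threshold and 1 at an unadjusted p of 0.05. Pitx1, which sets hind limb identity, ran from 18.9 through 53.3 to 90.0 in EOM and from 26.1 through 43.2 to 118 in TA, so the groups overlapped almost fully. The difference was 0.02 (95% interval -0.74 to 0.78). Lmx1b, which marks dorsal limb and the mesenchyme around the eye, was at 0.14 (95% interval -0.69 to 0.97), with a second probe set at -0.36. Lbx1, of muscle precursors that migrate into the limb, was at -0.39 (95% interval -1.36 to 0.57), its highest values being TA 3 (171) and EOM 1 (109). Gli3 is the transcription factor that mainly represses Hedgehog targets. Its brightest probe set was evenly high in EOM, from 334 through 369 to 412, and spread from 77.5 through 230.3 to 449 in TA. That probe set was at 0.78 ± 0.32 (adjusted p = 0.173). The other tested Gli3 probe set was spread in both groups, 173 to 381 in EOM and 146 to 360.5 in TA, and was at 0.22.

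Of the factors of head muscle mesoderm only Msc could be tested. Msc, a bHLH repressor of jaw muscle precursors, was at 168 to 320 in EOM and 99.9 to 358 in TA (0.41, 95% interval -0.23 to 1.04). Tcf21, which acts with Msc, reached 76.7 at most, and Isl1, of pharyngeal and cardiac mesoderm, reached 15.1 in EOM and 73.3 in TA. The others too dim to test were Tfap2b, Dlx1, Dlx2, Dlx6, Barx1, Hand2, Msx2, Otx1, Otx2, Zic1 and En1. The 20 probe sets of these 13 factors had signals from 0.8 to 133, and only 3 of the 20 went over 100 on any array. Fitted without the level filter, 0 of the 20 passed (limma) and 2 were at an unadjusted p under 0.05. The lowest adjusted p was 0.0714, for 1 of the 2 probe sets of Zic1, a zinc finger factor of dorsal neural and muscle tissue. That probe set was at 16.5 to 50.8 in EOM and 1.40 to 17.1 in TA, while the other Zic1 probe set was at 0.02.

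Across the tested factors the highest values clustered on a few arrays and the lowest were spread. EOM 1 was the highest of the EOM arrays for 15 of 27 factors and the lowest for 6. TA 3 was the highest of the TA arrays for 14 of 27 and the lowest for 2. TA 5 was highest for 5 and lowest for 6, and EOM 5 highest for 5 and lowest for 5. The most lowest values fell on EOM 2 and TA 6, with 7 each.

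**Figure D3:**
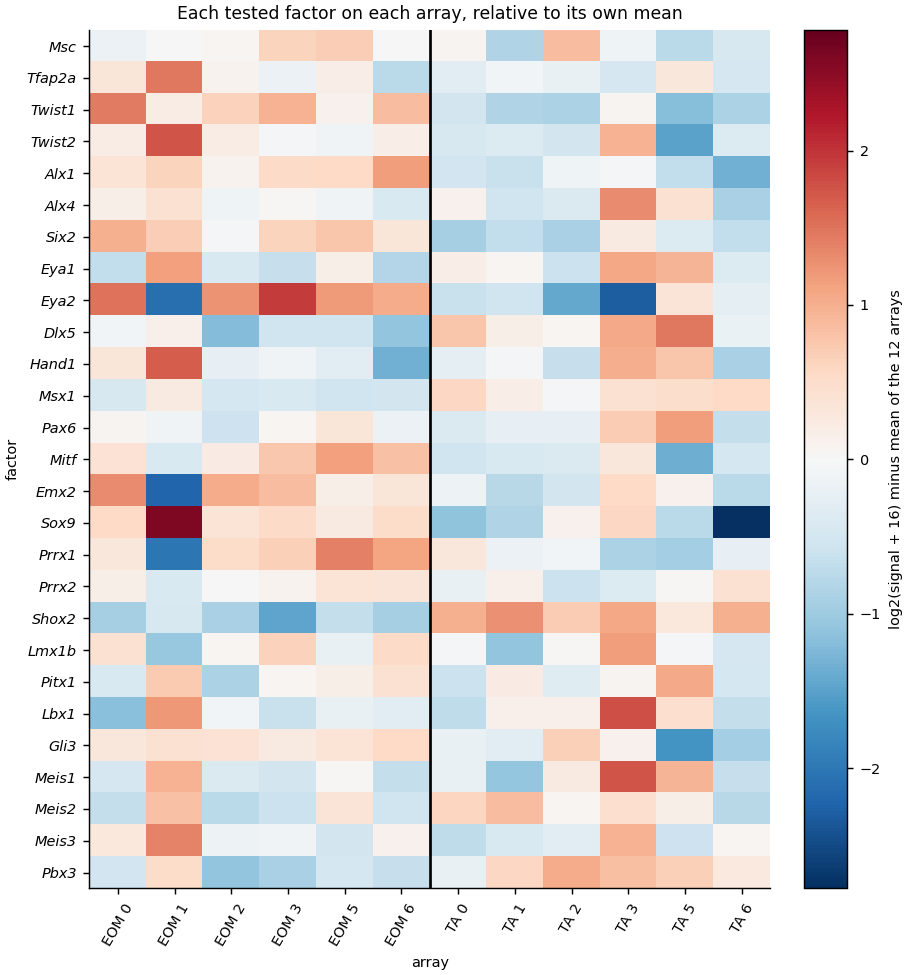
Each tested factor (row) on each array (column) as log2(signal + 16) minus its mean over the 12 arrays, red above and blue below that mean, with the EOM arrays left of the line. Twist1 and Alx1 are higher on the EOM side and Shox2 on the TA side without overlap, while EOM 1 is the highest EOM array for 15 of the 27 rows.

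The genes that work with these factors were described from a list of 67 partners, relatives and signals, of which 59 were on the array and 46 bright enough. Of the 46, 4 were higher and 10 lower in EOM, with a median of -0.21, beside a median of -0.04 and 4.05% higher and 6.81% lower over all genes. All 3 tested genes of the endothelin pathway that patterns the lower jaw were lower: the peptide Edn1 (-1.42), its processing enzyme Ece1 (-2.11) and the target Mef2c (-2.20). All 3 have known roles in endothelium too, and 8 of 10 endothelial markers were lower in EOM; their part in the result was not tested. In the Hedgehog pathway of Gli3, 3 of 11 rose and 0 fell. The co-receptor Cdon averaged 1798 ± 757 in EOM against 275 ± 96.5 in TA (SD, n = 6). Its log2 fold change was 2.54 ± 0.36 (SE, adjusted p = 1.44e-04). Gas1, another co-receptor, was at 1.13 ± 0.29 (adjusted p = 0.0176), and the activator Gli2 at 1.53 ± 0.45 (adjusted p = 0.0412). The co-receptor Boc pointed the other way in value, at -0.75 ± 0.35, and did not pass (adjusted p = 0.242).

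The receptor Ptch1 (-0.49) and Gli1 (0.12), which are themselves targets of the pathway, did not pass (adjusted p = 0.440 and 0.894). Of 5 tested partners of Six2 and Eya proteins, Six4 rose (1.34 ± 0.34, adjusted p = 0.0173) and the co-repressor Dach1 fell (-1.59 ± 0.34, adjusted p = 0.00542). Of 8 bHLH partners and inhibitors, Id1, which blocks bHLH proteins, fell (-2.02 ± 0.33, adjusted p = 5.98e-04), and so did the Twist partner Tcf4 (-1.02, adjusted p = 0.0318). Among 14 related factors 4 fell and 0 rose. Meox2, a homeobox factor of limb muscle and vessels, fell most, to 131 ± 76.9 from 1099 ± 342 in TA (SD, n = 6). Its log2 fold change was -3.0 ± 0.32 (SE, adjusted p = 9.08e-06). Lower as well were Meox1 (-1.14), the neural crest factor Snai2 (-1.57) and the tendon factor Mkx (-1.47), which is itself 1 of the 7 lower tendon markers. The TALE partners gave 0 of 5 past the threshold and 1 at an unadjusted p of 0.05. Without EOM 1, 7 of 47 partners were higher and 11 lower, where 10% of all genes were higher and 10.5% lower.

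**Figure D4:**
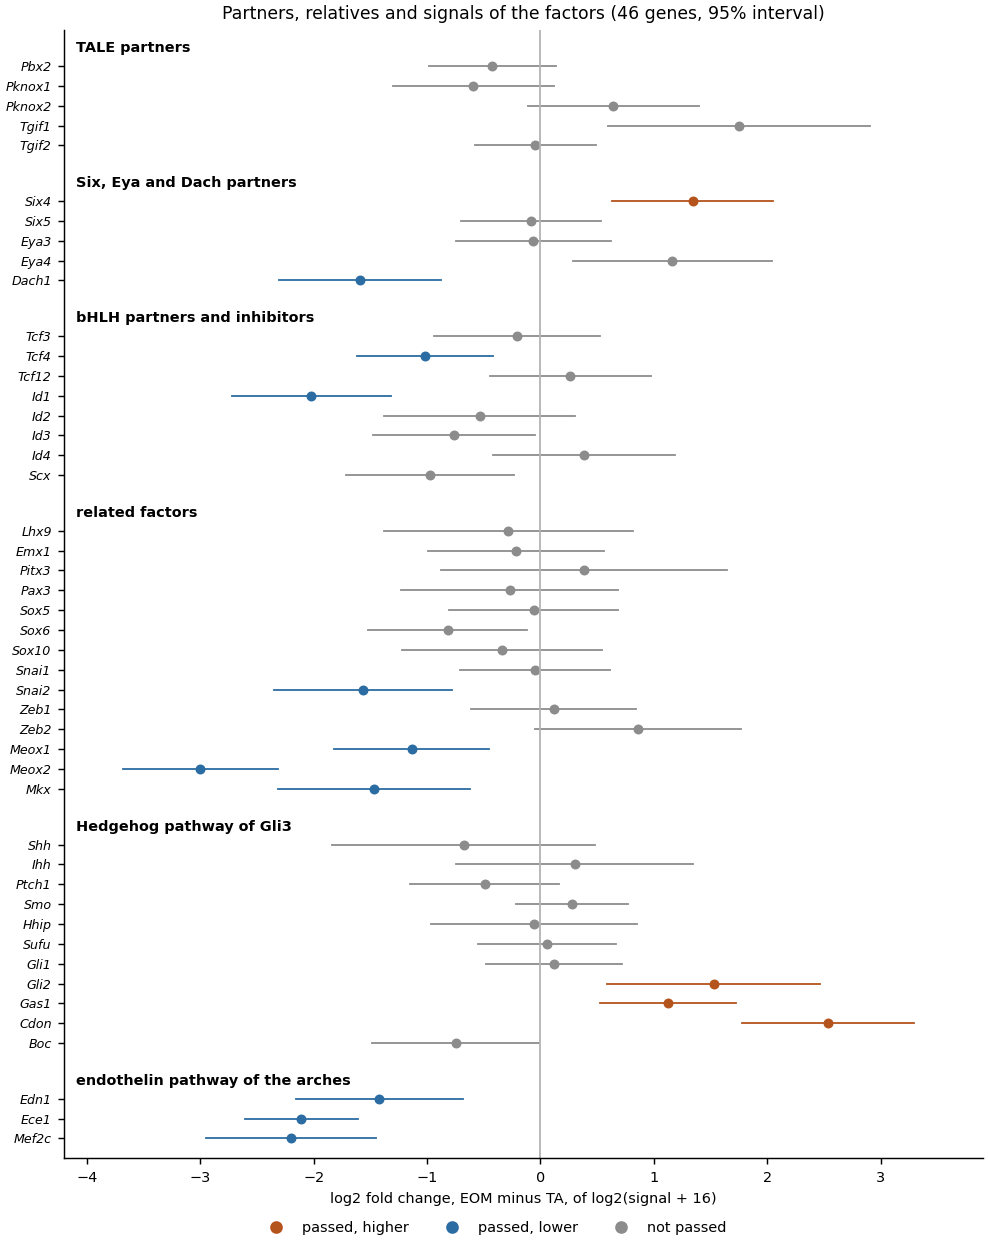
Log2 fold change (EOM minus TA, x axis, on the scale of log2(signal + 16)) with its 95% interval for the 46 tested partner genes, grouped by pathway, orange for higher and blue for lower past the threshold and grey for not passed. Meox2 lies farthest left at -3.0 and Cdon farthest right at 2.54.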

How the data were processed

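Total RNA of side population cells was amplified in 2 cycles, biotin-labelled and hybridized to Affymetrix Mouse 430 2.0 arrays, 6 EOM and 6 TA, per the labels' protocols. The deposited values are signal intensities from MAS5, per the submitters' processing notes. Trimmed means (2% off each end) came to 150.0 in all columns, so the deposited arrays share 1 overall scale. No 2 columns were identical (0 pairs), and 0 columns were left unused.

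Gene names come from GEO's annotation of the platform, which gives 1 symbol to 34958 probe sets, several to 932 and none to 9211; the 64 control probe sets, some of which carry a symbol, were left out. With gene identifiers, 0 symbols changed in GRCm38.p6 and 204 had no match. Signals were taken as log2(signal + 16), which understates changes of dim genes. Probe sets in the dimmest 40% by mean log2 value were not tested, leaving 27022 probe sets and 13067 genes, each represented by its brightest probe set. The test was limma (version 3.58.1, R 4.3.3) with an intensity trend, two-sided, with Benjamini-Hochberg adjustment over all probe sets tested and a threshold of 0.05. The fit was also run on simulated data with independent noise and no outlying array. That run therefore does not bear on the effect of EOM 1. The factors, lists and tests were chosen with earlier results of these data known. Factors past the threshold, those with the 8 largest changes, and Isl1, Pitx1, Lmx1b, Lbx1, Msc, Tcf21, Alx4, Twist1 and Twist2 whatever their result were to be described in full, and the rest by values. Of partners past the threshold, the 10 with the largest change were to be named; Six4, Gas1, Tcf4 and Meox1 were added after their values were seen. P-values measure the spread between preparations, which may be partly technical. Promoter sequences are RefSeq's, and 27 of the 40 factors matched. Array coordinates are not given, since the array's build is not given in the sources used here. Alternatives changed the added constant (1 or 64), normalization, filter, trend, array weights, replicate block, 3' to 5' covariate, probe set averaging and the arrays used.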

Additional observations from a re-analysis of the deposited data

Results flagged for a closer look

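In 7 of 54 groups of 6 signals (27 tested factors in EOM and in TA) 1 array was separated from the rest by a gap large for 6 values (Dixon's 95% critical value). Chance flags about 1 in 20 groups. All 7 were EOM 1, the array with the highest median signal. It was high for Sox9 (2014, the other EOM arrays at 383 to 481), Twist2 (842, others 226 to 282), Pbx3 (430.1, others 132 to 207) and Msx1 (332, others 184 to 205). It was low for Prrx1 (202.5, others 1079 to 2304), Eya2 (7.4, others 188 to 366) and Emx2 (3.00, others 81.6 to 200.4). The part of array quality in these values was not tested.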

How the results depend on the processing

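With 1 array left out at a time, 1011 to 2688 genes, 3 to 12 factors (2 to 8 higher and 1 to 4 lower) and 10 to 18 partners passed, and 2 to 7 factors did not overlap, the highest of each without EOM 1. Without EOM 1, 25.9% of the factors did not overlap, beside 15.2% of all genes. Median centring gave 904 of 13067 genes (328 higher), 7 of 27 factors (4 higher), 7 of 46 partners and 5 factors without overlap. Twist1 and Alx1 were not among those 5. The share of all genes without overlap was not counted under median centring, so the count of 5 has no background to be read against. Array weights gave 3264 of 13067 genes and 13 of 27 factors (9 higher and 4 lower), with 48.0% of the called genes higher against 37.3%. Without EOM 1, TA 3 and TA 5, 2869 genes and 11 factors (8 higher) passed and 12 did not overlap. An added constant of 64 gave 4 higher factors of 25, beside 551 higher genes of 13083. The 3' to 5' covariate gave 4 higher factors of 27, beside 756 higher genes of 13067. With the mean of probe sets 0 factors were lower (limma; 3 at an unadjusted p under 0.05). The replicate numbers are shared by the groups, but same-numbered arrays deviated together (correlation over 0.1) in only 2 of 6 pairs, so they were not taken as pairs; with the replicate block as a fixed term 1049 genes and 3 factors passed, 1 of them lower, with Pbx3 lost. Signs turned for values near 0: Alx4 was at -0.0355 with a constant of 64 and -0.17 to 0.27 with 1 array left out, Pitx1 at -0.0154 with array weights, -0.12 with the mean of probe sets and -0.12 to 0.23 with 1 array left out, and Lmx1b at -0.11 with the mean and -0.0651 to 0.39 with 1 array left out. Hand1 ran from -0.32 to 0.28 and Pax6 from -0.27 to 0.0067 with 1 array left out, and without EOM 1, TA 3 and TA 5 Pax6 was at 0.32 and Meis1 at 0.02. The cause was not tested. Signal over background limits what can be said of factors near the level filter, a mean log2 value that corresponds to a signal of about 26.9.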

Other observations

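Probe sets of 1 gene did not move alike on EOM 1. For Sox9, EOM 1 was the highest EOM array on 2 tested probe sets (2014 and 294.8, the other EOM arrays at 383 to 481 and at 20.6 to 74.0) and the lowest on the third (4.90, the others at 187 to 395). Without EOM 1, the third Sox9 probe set had every EOM array above every TA array, 187 to 395 against 47.9 to 149.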
